A study of Mus musculus with 6 samples.

Results

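The netrin, Slit, semaphorin and ephrin guidance genes were described in tissue cut from either side of the dorsal aorta of mouse embryos at embryonic day 10.5. The list holds 53 genes, taken by gene symbol, and 52 of them had a named probe set on the Affymetrix mouse Gene 2.0 ST array, out of 24675 genes with 1 symbol. Ephb2 was not analysed here. The 52 genes comprised 8 of the netrin group, 6 of the Slit and Robo group, 22 of the semaphorin and plexin group and 16 of the ephrin and Eph group. The ventral tissue (3 arrays) lay underneath the aorta, and the dorsal tissue (3 arrays) lay between its roof and the notochord. All embryos were C57Bl/6 with no allele or treatment named, and both regions were taken from the same embryos by laser microdissection of stained frozen sections. How many embryos or sections made up a sample is not stated in the labels. Nor do the labels say that equal replicate numbers share an embryo, so a pair below means only arrays of equal number. The series addresses the niche of blood stem cells beneath the aorta, so the question here is which guidance transcripts differ between its ventral and its dorsal side. Whole tissue was measured, so fewer cells of a type and less RNA per cell cannot be told apart.

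Guidance cues are secreted or membrane-bound proteins that steer growing axons, migrating cells and vessel sprouts by attraction or repulsion. Netrins act through Dcc, neogenin and Unc5 receptors, Slits through Robo receptors, most semaphorins through plexins, and ephrins through Eph receptor tyrosine kinases, which also signal back into the cell that carries the ephrin. Near the midline, netrins and Slits come from the floor plate and other axial tissues, and around vessels ephrin-B2 marks arteries and EphB4 marks veins.

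The 4 promoter windows shown belong to the netrin with the largest difference (Ntn3), to the 2 Slits that were higher in ventral tissue in every pair (Slit2 and Slit3), and to the plexin with the smallest p-value (Plxnb2). Each is the 250 bases before a RefSeq start site on GRCm38.p6, written 5′ to 3′ on the strand of the gene. Capitals mark the GC box (GGGCGG on either strand) and the TATA box (TATAAA on either strand), which do not overlap each other here. Ntn3 lies at chr17:24209388-24209637 on the minus strand, Slit2 at chr5:47982905-47983154 on the plus strand, Slit3 at chr11:35121206-35121455 on the plus strand, and Plxnb2 at chr15:89180789-89181038 on the minus strand, where the table lists 2 starts and the upstream one is shown.
Ntn3: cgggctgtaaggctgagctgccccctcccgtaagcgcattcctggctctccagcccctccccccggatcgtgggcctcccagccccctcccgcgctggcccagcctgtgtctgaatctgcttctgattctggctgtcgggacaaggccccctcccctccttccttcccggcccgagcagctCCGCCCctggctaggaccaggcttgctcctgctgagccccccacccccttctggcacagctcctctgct
Slit2: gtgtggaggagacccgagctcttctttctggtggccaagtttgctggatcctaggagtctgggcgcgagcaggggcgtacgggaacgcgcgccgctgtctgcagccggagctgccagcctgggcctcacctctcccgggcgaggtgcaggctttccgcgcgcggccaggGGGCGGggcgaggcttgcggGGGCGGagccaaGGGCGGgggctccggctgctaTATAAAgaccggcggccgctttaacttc
Slit3: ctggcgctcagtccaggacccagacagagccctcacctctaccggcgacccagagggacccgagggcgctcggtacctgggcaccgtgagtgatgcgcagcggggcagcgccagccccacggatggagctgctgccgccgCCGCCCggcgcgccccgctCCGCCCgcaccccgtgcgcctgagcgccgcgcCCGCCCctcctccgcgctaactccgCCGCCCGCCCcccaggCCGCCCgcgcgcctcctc
Plxnb2: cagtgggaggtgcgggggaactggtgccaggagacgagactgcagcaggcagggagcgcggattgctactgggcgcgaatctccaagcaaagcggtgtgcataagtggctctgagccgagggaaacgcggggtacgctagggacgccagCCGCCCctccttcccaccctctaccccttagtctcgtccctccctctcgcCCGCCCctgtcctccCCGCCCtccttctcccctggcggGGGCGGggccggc

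The Ntn3 window held 1 GC box, the Slit2 window 3, the Slit3 window 6 and the Plxnb2 window 4, with overlapping matches counted each. Slit2 alone of these 4 windows had a TATA box, beginning 28 bases before the start. The E-box CANNTG and the Gli-type letters GACCACCCA, both searched on both strands, were in none of the 4. Windows were found for 42 of the 52 genes, 56 windows in all. A GC box was present in 71.4% of those 56 windows, against 42.6% of the 21263 windows of protein-coding genes and 32.7% of all 32851 windows in the table. A TATA box was present in 3.57% of the guidance gene windows, 11.6% of the protein-coding windows and 12.4% of all windows. An E-box was present in 39.3% of the guidance gene windows, 62.8% of the protein-coding windows and 66.2% of all windows. The Gli-type letters were in 0 of 56 guidance gene windows, 0.16% of the protein-coding windows and 0.225% of all windows. The median GC content was 64.4% in the guidance gene windows and 52.4% in all windows. These matches describe letters only.

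Signals are deposited RMA values on the log2 scale, on which a difference of 1 is a 2-fold change. Array medians lay between 3.20 and 3.24 in ventral and between 3.24 and 3.28 in dorsal tissue. As a yardstick chosen after the values had been seen, the 1088 olfactory receptor genes on the array had a median signal of 2.69 and a 95th percentile of 4.61. Of the 52 guidance genes, 0 had a mean above that percentile, against 7.48% of all genes. Probe sets differ in brightness, so this does not order the genes, and the guidance signals were not shown to be above background. Markers of the tissues around the aorta were mostly as dim, with 1 of 7 sclerotome genes above the percentile, 2 of 5 notochord genes, 0 of 7 genes of splanchnic mesoderm and coelomic epithelium and 0 of 7 endothelial genes. Globin transcripts were bright, with Hba-x at a mean of 9.79 in ventral and 10.1 in dorsal tissue. The averaged signal of the 7 sclerotome genes was 3.77 to 4.03 in the ventral and 4.29 to 4.46 in the dorsal arrays. For 5 neural progenitor genes it was 3.55 to 5.22 in the ventral and 3.27 to 3.45 in the dorsal arrays. Of these 5 genes 0 passed the adjusted threshold in limma and 2 had an unadjusted p under 0.05, against 10.2% of all genes. Fabp7 had 5.64, 5.09 and 5.66 in the ventral arrays, against 3.60, 3.82 and 3.80 in the dorsal arrays. Nes was higher in ventral tissue in all 3 pairs, with overlapping groups. Sox1 went the other way, lower in ventral tissue in all 3 pairs, with a difference of -0.38 and overlapping groups. Pax6 differed by 0.08, with pairs of both signs. Sox2 was at 7.61 in ventral array 1 and between 2.20 and 2.73 in the other 5 arrays. For 7 endothelial genes the averaged signal was 3.01 to 3.24 in the ventral and 3.04 to 3.06 in the dorsal arrays.

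**Figure D1:**
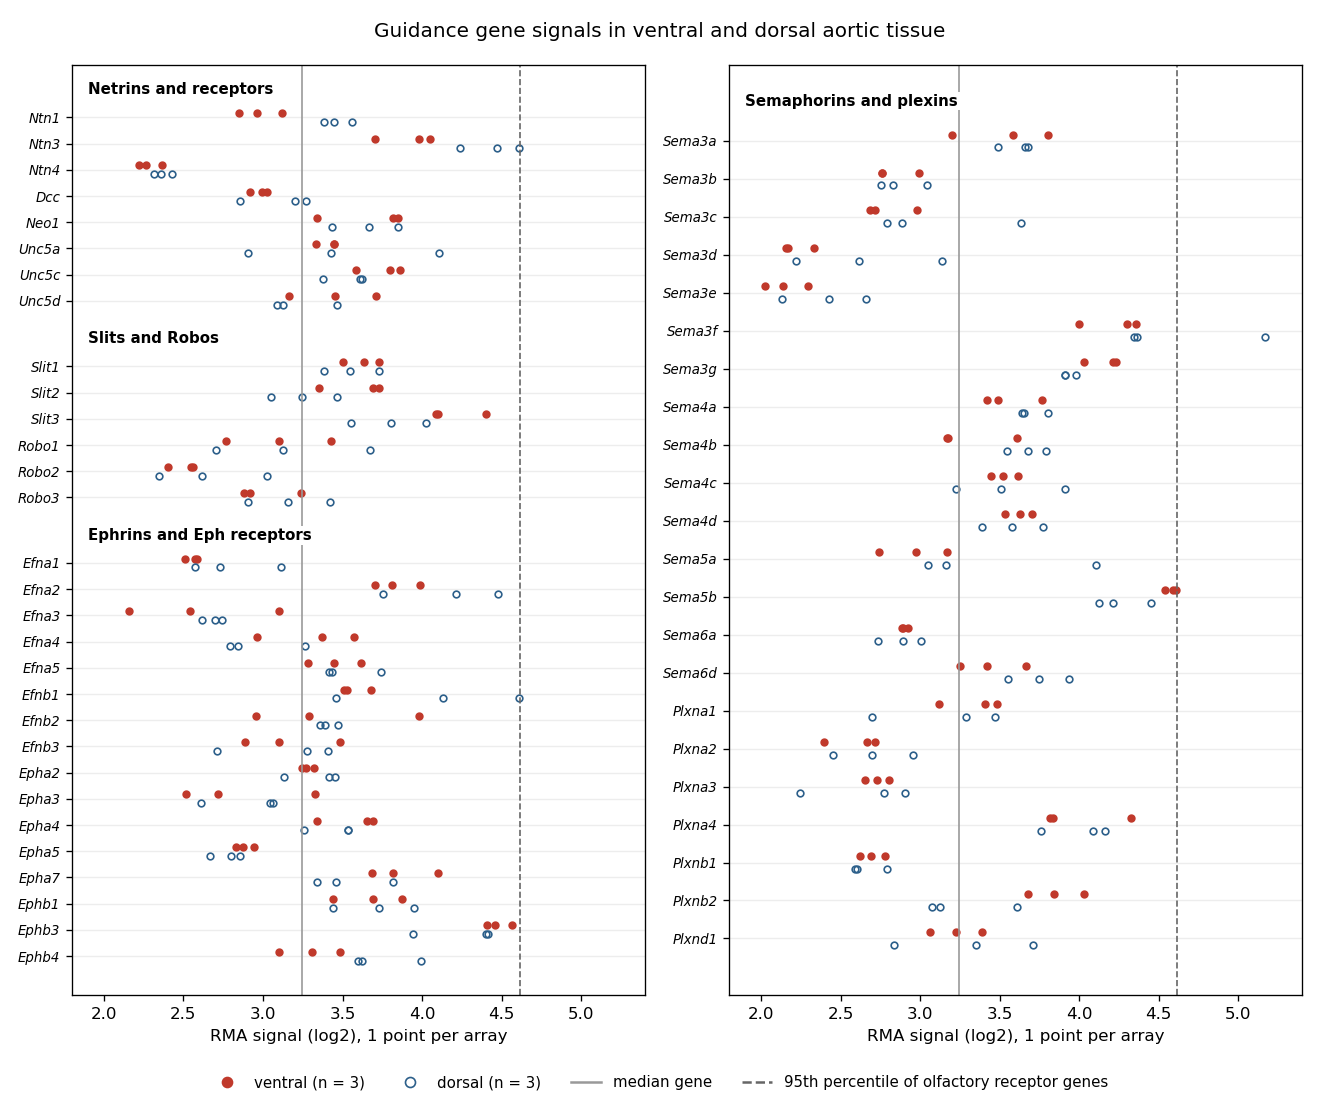
RMA signal (log2, horizontal axis) of the 52 guidance genes in each of the 3 ventral arrays (filled points, upper of each row) and 3 dorsal arrays (open points, lower of each row). The grey line is the median gene (3.24) and the dashed line the 95th percentile of the olfactory receptor genes (4.61). Sema3f in dorsal array 3, at 5.17, is the one point to the right of the dashed line.

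No guidance gene passed the threshold of an adjusted p of 0.05 in limma over all 24675 genes. The same held for all genes, of which 0% were called. The lowest adjusted p of a guidance gene was 0.469, for Ntn1 and Ntn3, the highest 0.997, and the 95% interval of the difference included 0 in 49 of 52. The unadjusted p was under 0.05 in 3 guidance genes of 52, against 10.2% of all genes. Plxnb2 was the 1 higher in ventral tissue (background 4.32%), and Ntn1 and Ntn3 were the 2 lower (background 5.9%). The ventral and dorsal arrays did not overlap in 7 guidance genes, 13.5% of them, against 18.7% of all genes. Slit3, Sema3g, Sema5b and Plxnb2 were higher in all ventral arrays (4 genes, background 6.74%), and Ntn1, Ntn3 and Ephb4 were lower in all of them (3 genes, background 12%). The difference had the same sign at all 3 replicate numbers in 17 guidance genes, with 9 higher in ventral tissue (background 13.3%) and 8 lower (background 21.8%). The share of genes higher without overlap was close to that of the whole array, and the share higher at all 3 numbers was a little above it. The other shares were below those of the whole array, and none of these contrasts was tested.

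The intervals limited the size of most differences. In 47 of 52 genes the 95% interval lay within 1 log2 unit on either side of 0. The other 5 were Ntn3, Sema3d, Sema5a, Efnb1 and Plxnb2, whose interval reached past 1 log2 in one direction. Near background, RMA signals understate a difference in transcript level, so these intervals bound the signal and not the transcript. Further fits left out 1 array, then without the replicate block, or both arrays of 1 number, with the block. Leaving out arrays in these ways moved the difference by over 1.5 times in 44 of 52 genes. The 8 others were Ntn1, Ntn3, Slit3, Sema3g, Sema4b, Sema5b, Plxnb2 and Ephb4. The median difference over the 52 genes was -0.05 and over all genes -0.06, and 31 of 52 guidance genes (59.6%) against 58% of all genes were below 0. By family the median was -0.08 for the netrin group, 0.00 for the Slit and Robo group, -0.06 for semaphorins and plexins and -0.05 for ephrins and Eph receptors.

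**Figure D2:**
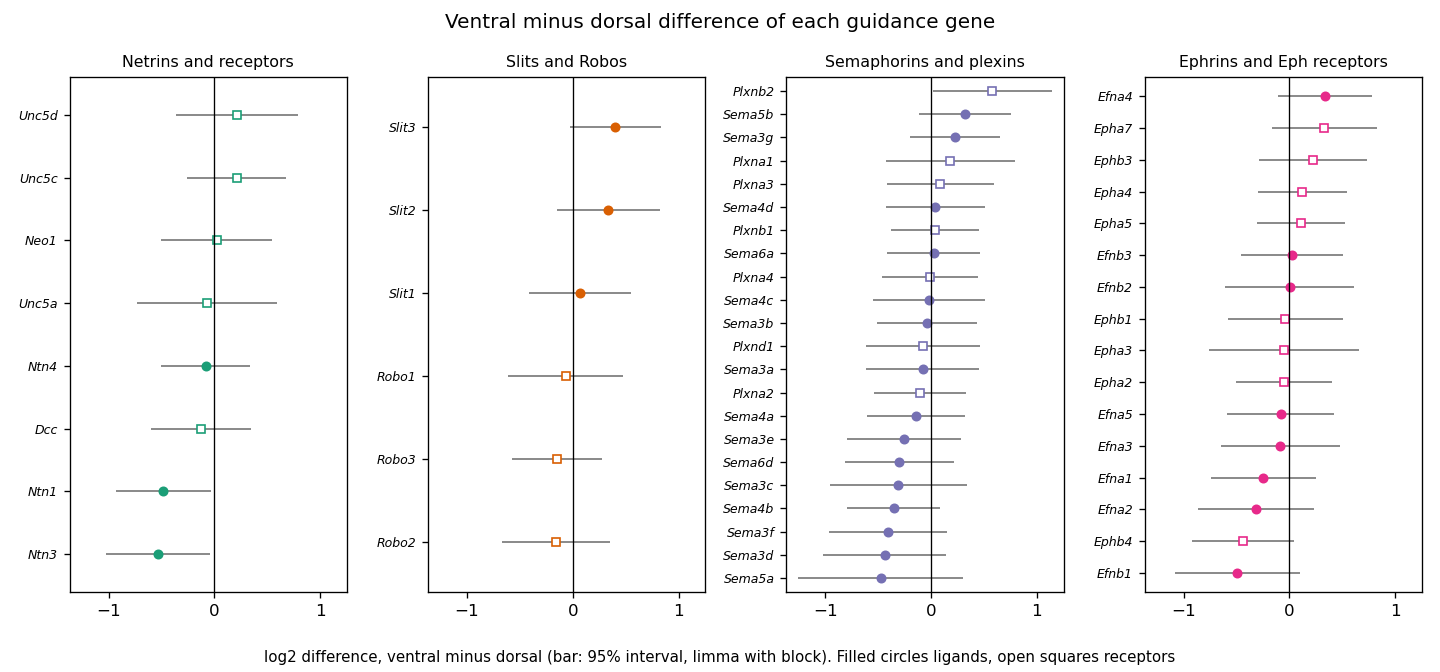
Log2 difference, ventral minus dorsal, of each guidance gene (horizontal axis) with its 95% interval, in 4 panels by family, with ligands as filled circles and receptors as open squares. The intervals of Ntn1 and Ntn3 lie left of 0 and that of Plxnb2 lies right of 0, and the other 49 cross it.

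Among the netrin ligands, all 3 listed genes were lower in ventral tissue at each of the 3 replicate numbers. Ntn1, the diffusible netrin of the floor plate, had 2.96, 3.12 and 2.85 in the ventral arrays, against 3.56, 3.38 and 3.45 in the dorsal arrays. The groups did not overlap, and the difference was -0.48 ± 0.18 (SE), with an interval from -0.92 to -0.05 and an adjusted p of 0.469 in limma. Ntn3, a second secreted netrin, had 4.05, 3.98 and 3.70 in the ventral arrays, against 4.24, 4.61 and 4.47 in the dorsal arrays. Here too every ventral array was below every dorsal array, and the difference was -0.53 ± 0.19 (SE), with an interval from -1.01 to -0.05. Ntn4, a netrin related to laminin beta chains, averaged 2.28 ± 0.07 in ventral and 2.37 ± 0.06 in dorsal tissue (SD, n = 3 each). Its groups overlapped and its difference of -0.08 became 0.06 after cyclic loess between the arrays, so the common direction of the 3 ligands did not hold under that scaling. Outside the list, Ntn5 differed by -0.05 and Ntng1 by -0.13, both with mixed signs over the replicate numbers. Ntng2 differed by -0.18 and was lower at each number. All of these had overlapping groups. The 7 sclerotome genes had a median difference of -0.29, against -0.06 over all genes. Of them 0 passed the adjusted threshold in limma and 3 had an unadjusted p under 0.05, against 10.2% of all genes. Those 3 were Twist1, which averaged 5.12 in ventral and 6.52 in dorsal tissue, Foxc2, which averaged 3.77 in ventral and 4.26 in dorsal tissue, and Nkx3-2, which averaged 3.71 in ventral and 4.22 in dorsal tissue. The other 4, Pax1, Pax9, Meox1 and Sox9, had overlapping groups and differences between -0.29 and -0.02. Of the 5 notochord genes measured, 0 had an unadjusted limma p under 0.05 and the median difference was -0.10. The part of either set of genes in the netrin values was not tested.

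Of the 5 netrin receptors, 2 had negative and 3 had positive differences. Dcc, the attractive receptor, averaged 2.98 ± 0.05 in ventral and 3.11 ± 0.22 in dorsal tissue (SD, n = 3 each), a difference of -0.13. Neo1, neogenin, had 3.34, 3.85 and 3.82 in the ventral arrays, against 3.67, 3.44 and 3.85 in the dorsal arrays, and the groups overlapped almost entirely. Unc5c, a receptor for repulsion by netrin, had 3.86, 3.80 and 3.59 in the ventral arrays, against 3.38, 3.62 and 3.61 in the dorsal arrays. Its difference was 0.21, with an interval from -0.25 to 0.67. Unc5d differed by 0.22 and Unc5a by -0.07. Unc5a had 3.45, 3.34 and 3.44 in the ventral arrays, against 4.11, 3.43 and 2.90 in the dorsal arrays, so the ventral values lay inside a wide dorsal range.

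The Slit ligands had positive differences in all 3 genes, also after median centring and after cyclic loess. Slit3 had 4.40, 4.09 and 4.10 in the ventral arrays, against 4.02, 3.55 and 3.80 in the dorsal arrays. The groups did not overlap, and the difference was 0.40 ± 0.17 (SE), with an interval from -0.02 to 0.82 and an adjusted p of 0.495 in limma. Slit2, a repellent of the midline, had 3.73, 3.69 and 3.35 in the ventral arrays, against 3.05, 3.47 and 3.24 in the dorsal arrays. The lowest ventral array fell among the dorsal ones, and the difference was 0.34 ± 0.19 (SE). Slit1, mainly a neural Slit, differed by 0.07 with overlapping groups, and its sign turned without both arrays numbered 3 (-0.07) and without dorsal array 3 (-0.02).

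The Robo receptors had small negative differences in all 3 genes. Robo1 had 2.77, 3.43 and 3.10 in the ventral arrays, against 3.12, 3.67 and 2.70 in the dorsal arrays, a difference of -0.07. Robo2 had 2.56, 2.55 and 2.40 in the ventral arrays, against 2.35, 3.02 and 2.62 in the dorsal arrays, a difference of -0.16. Robo3, a divergent Robo of commissural axons, had 3.24, 2.92 and 2.88 in the ventral arrays, against 3.42, 3.16 and 2.91 in the dorsal arrays, a difference of -0.15. Every Robo gene had overlapping groups, and every interval included 0, the widest from -0.60 to 0.47 for Robo1.

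**Figure D3:**
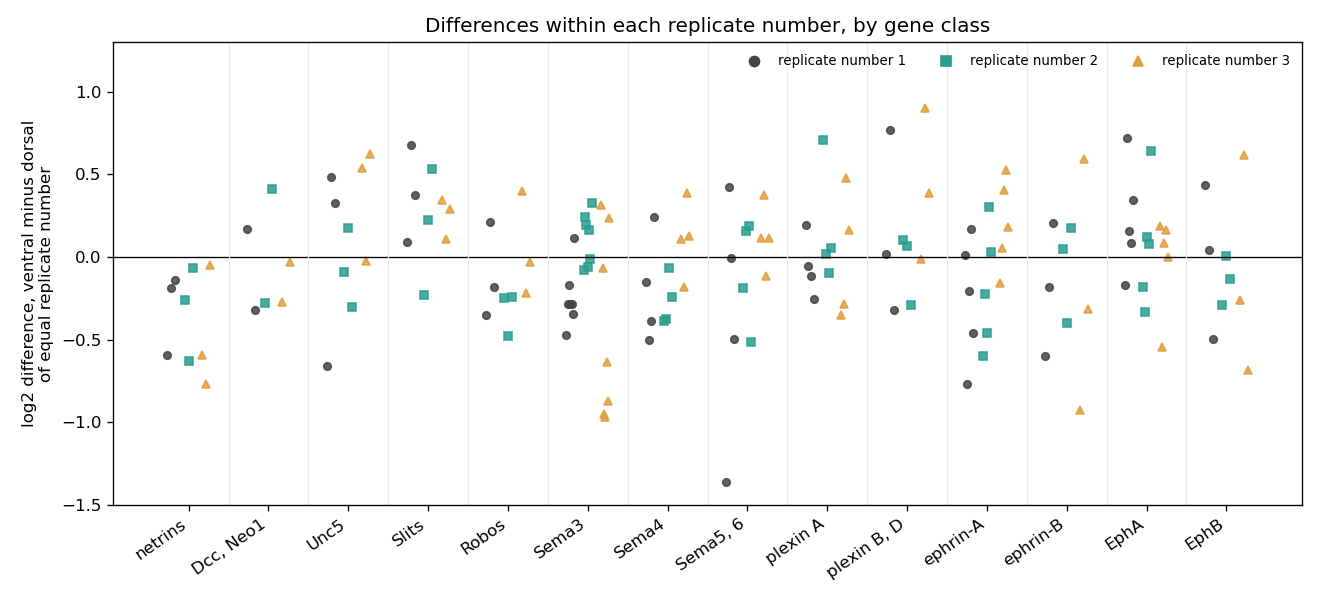
Log2 difference, ventral minus dorsal, between arrays of equal replicate number (vertical axis), 1 point per gene and number, by gene class. The 9 netrin points lie below 0 and 8 of the 9 Slit points above it, while the class 3 semaphorins spread from -0.97 to 0.33.

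Among class 3 semaphorins, the secreted semaphorins, 6 of 7 genes had negative differences, and the one exception was Sema3g. Sema3f, a repellent that binds neuropilin-2, had 4.0, 4.36 and 4.30 in the ventral arrays, against 4.35, 4.37 and 5.17 in the dorsal arrays. Dorsal array 3 stood apart, and the difference was -0.41 ± 0.22 (SE), or -0.14 without that array. Sema3d had 2.34, 2.16 and 2.17 in the ventral arrays, against 2.62, 2.22 and 3.14 in the dorsal arrays, a difference of -0.44 ± 0.23 (SE), or -0.20 without dorsal array 3. Sema3c, needed for outflow tract septation, and Sema3e, a ligand of plexin-D1, had differences of -0.31 and -0.25, with 3.63 and 2.66 in dorsal array 3. That array held the highest value of all 6 in each of Sema3c, Sema3d, Sema3e and Sema3f. Without it the median difference of the 7 genes was -0.13, against -0.25 with all arrays. Sema3a, a repellent acting through neuropilin-1 and A plexins, had 3.20, 3.58 and 3.80 in the ventral arrays, against 3.68, 3.66 and 3.49 in the dorsal arrays, with overlapping groups. Sema3b differed by -0.04, and by 0.01 after median centring, so the count of 6 became 5 under that scaling and under cyclic loess.

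Sema3g, a semaphorin of arterial endothelium, had 4.03, 4.23 and 4.21 in the ventral arrays, against 3.91, 3.91 and 3.98 in the dorsal arrays. All ventral arrays were higher, by 0.22 on average, with an interval from -0.19 to 0.64. Sema5b, a membrane semaphorin, had 4.54, 4.61 and 4.59 in the ventral arrays, against 4.12, 4.45 and 4.21 in the dorsal arrays. It did not overlap between groups either, with a difference of 0.32 ± 0.17 (SE) and an adjusted p of 0.558 in limma. The related Sema5a had the opposite sign, -0.48 ± 0.31 (SE), with 2.74, 2.97 and 3.17 in the ventral arrays, against 4.10, 3.16 and 3.05 in the dorsal arrays. Without dorsal array 1 this difference was -0.15. Of the class 4 semaphorins, Sema4b had 3.17, 3.17 and 3.61 in the ventral arrays, against 3.68, 3.54 and 3.79 in the dorsal arrays. It was lower in ventral tissue at each number, with a difference of -0.35 ± 0.17 (SE) and groups that overlapped through ventral array 3. Sema6d, a class 6 ligand of plexin-A1, differed by -0.30 with an interval from -0.81 to 0.21. The genes Sema4a, Sema4c, Sema4d and Sema6a had differences between -0.14 and 0.04.

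The plexins were led by Plxnb2, a receptor for class 4 semaphorins, which had the largest positive difference of the 52 genes. Its signals were 3.84, 3.68 and 4.03 in the ventral arrays, against 3.07, 3.61 and 3.13 in the dorsal arrays. The groups did not overlap, although ventral array 2 was above dorsal array 2 by only 0.06. The difference was 0.58 ± 0.22 (SE), with an interval from 0.02 to 1.13 and an adjusted p of 0.484 in limma. Plxnd1, the endothelial plexin that binds Sema3e, had 3.39, 3.06 and 3.22 in the ventral arrays, against 3.71, 3.35 and 2.83 in the dorsal arrays. Its difference of -0.07 had an interval from -0.60 to 0.46, with the ventral values inside the dorsal range. Plxna4, a partner of neuropilins, had 3.83, 3.82 and 4.32 in the ventral arrays, against 4.08, 3.76 and 4.16 in the dorsal arrays, a difference of -0.01. The remaining plexins, Plxna1, Plxna2, Plxna3 and Plxnb1, had differences between -0.11 and 0.18 with overlapping groups.

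Among the ephrins, no ligand separated the groups. Efnb1, ephrin-B1, had 3.53, 3.51 and 3.68 in the ventral arrays, against 4.13, 3.46 and 4.61 in the dorsal arrays. Dorsal arrays 1 and 3 were high and dorsal array 2 was below all ventral arrays, so the difference of -0.49 ± 0.24 (SE) came with an SD of 0.09 in ventral and 0.58 in dorsal tissue. Without dorsal array 3 it was -0.22. Efnb2, the arterial ephrin-B2, had 3.29, 2.96 and 3.98 in the ventral arrays, against 3.47, 3.36 and 3.39 in the dorsal arrays. Its difference was 0.00, with an interval from -0.60 to 0.60. Efna2 had 3.71, 3.99 and 3.81 in the ventral arrays, against 4.48, 4.21 and 3.75 in the dorsal arrays. Its difference of -0.31 was -0.15 without dorsal array 1 and -0.51 without dorsal array 3. Efna4 had 2.96, 3.57 and 3.37 in the ventral arrays, against 2.79, 3.26 and 2.84 in the dorsal arrays. Efna4 was higher in ventral tissue at each number, with a difference of 0.33 ± 0.18 (SE) and groups that overlapped. Efna1, an ephrin of endothelium, differed by -0.25 with an interval from -0.73 to 0.24, and by -0.10 without dorsal array 2. Efna3, Efna5 and Efnb3 differed by -0.09 to 0.02.

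Of the 8 listed Eph receptors measured, Ephb4, the venous partner of ephrin-B2, was the one without overlap. Outside the list, Epha6 was also lower in all ventral arrays, with a difference of -0.26. Ephb4 had 3.10, 3.49 and 3.31 in the ventral arrays, against 3.60, 3.62 and 3.99 in the dorsal arrays. The difference was -0.44 ± 0.19 (SE), with an interval from -0.91 to 0.03 and an adjusted p of 0.501 in limma. The 7 endothelial markers had a median difference of 0.05 and 0 of 7 had an unadjusted limma p under 0.05 (background 10.2%). Kdr averaged 3.30 in ventral and 3.13 in dorsal tissue, and Cdh5 averaged 3.73 in ventral and 3.79 in dorsal tissue. Ephb3 had 4.46, 4.41 and 4.57 in the ventral arrays, against 4.42, 4.40 and 3.94 in the dorsal arrays. The difference of 0.22 ± 0.20 (SE) was 0.07 without dorsal array 3, and the pairs numbered 1 and 2 differed by 0.04 and 0.01. Epha7, a receptor for A ephrins, averaged 3.87 ± 0.21 in ventral and 3.54 ± 0.25 in dorsal tissue (SD, n = 3 each), a difference of 0.33. Epha2, Epha3, Epha4, Epha5 and Ephb1 had differences between -0.05 and 0.12. Epha4 and Epha5 were higher in ventral tissue at all 3 numbers, by 0.12 and 0.11 on average, with overlapping groups.

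Ligands and receptors of a family had different median differences. The 3 netrins had a median difference of -0.48 and their 5 receptors 0.02, the 3 Slits 0.34 and the 3 Robos -0.15. The 15 semaphorins had -0.14 and the 7 plexins 0.04, the 8 ephrins -0.08 and the 8 Eph receptors 0.04. These are descriptions of genes on the same 6 arrays, and the differences between ligands and receptors were not tested. The spread between replicates was wider in dorsal tissue in 35 of 52 guidance genes, and in a similar share of all genes (16289 of 24675). Over all genes, the ventral arrays correlated with each other at 0.887 to 0.898 (Pearson). The dorsal arrays correlated with each other at 0.813 to 0.828, no better than with the ventral arrays (0.818 to 0.853). The median SD was 0.17 over the ventral and 0.22 over the dorsal arrays, against 0.18 over the ventral and 0.26 over the dorsal arrays for all genes.

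**Figure D4:**
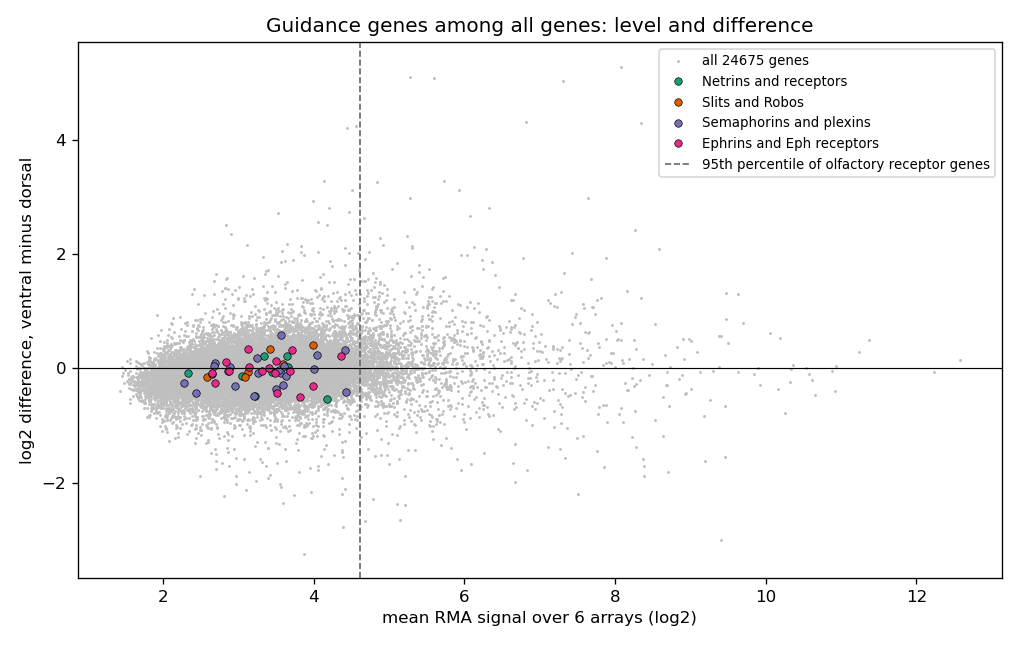
Mean signal over the 6 arrays (log2, horizontal axis) and log2 difference, ventral minus dorsal (vertical axis), of all 24675 genes (grey points) and the guidance genes by family (coloured points). The guidance genes have means between 2.28 and 4.42, left of the dashed line at 4.61, and differences between -0.53 and 0.58, within the cloud of all genes.

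A further 26 guidance genes outside the list were read from the same fit, and 0 of them passed the adjusted threshold. With an unadjusted p under 0.05 stood 2 higher (background 4.32%) and 1 lower (background 5.9%) in ventral tissue. Rgma, a repulsive ligand of neogenin, had 4.25, 4.06 and 4.61 in the ventral arrays, against 3.77, 3.70 and 3.81 in the dorsal arrays, and Sema6c, a class 6 semaphorin, differed by 0.49. Nrp1, the co-receptor of plexins for Sema3a and a receptor for VEGF, had 3.00, 2.89 and 2.86 in the ventral arrays, against 3.66, 3.22 and 3.21 in the dorsal arrays. For these 3 genes the groups did not overlap, and their adjusted p lay between 0.464 and 0.484 in limma. Flrt1 and Flrt3, membrane proteins that bind Unc5 receptors, had differences of 0.44 and 0.41, and Epha10 had 0.02. In all, 8 of the 26 (30.8%) did not overlap between groups, against 18.7% of all genes.

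Of 34 genes that act downstream of guidance receptors, 0 passed the adjusted threshold, 1 had an unadjusted p under 0.05 (background 10.2%) and 7, or 20.6%, did not overlap between groups (background 18.7%). The 1 gene was Srgap2, a member of the Robo-binding srGAP family, at 2.97, 3.13 and 2.60 in the ventral arrays, against 2.54, 2.10 and 2.35 in the dorsal arrays. Farp2, an exchange factor downstream of plexin-A1, differed by -0.39, Arhgef12, an exchange factor bound by B plexins, by 0.44, and Dpysl2, a mediator of semaphorin signalling to microtubules, by 0.35. Cdc42, the small GTPase, had 6.80, 6.45 and 6.19 in the ventral arrays, against 6.10, 6.12 and 6.13 in the dorsal arrays. Its difference of 0.36 had an unadjusted limma p of 0.118 and an adjusted p of 0.558. Rac1 differed by 0.11 and the actin regulator Vasp by -0.07, with overlapping groups.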

How the data were processed

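Total RNA of laser-microdissected tissue was amplified and hybridised, 1 array per sample, per the labels' protocols (picogram amounts, single primer isothermal amplification). The authors deposited log2 values, 1 per probe set and array, made with Affymetrix Expression Console and RMA, whose versions are not given in the sources used here, per the submitters' processing notes. The log base was taken from the values (0.97 to 12.9). The table held 25429 probe sets and 0 missing values. Of these, 24675 had 1 gene symbol, 0 had several and 754 were unnamed, and symbols were updated through gene numbers.

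The ventral minus dorsal difference was fitted with limma 3.58.1 (R 4.3.3, lmFit and eBayes) over all 24675 genes, two-sided, with Benjamini-Hochberg adjustment and a threshold of 0.05, without a filter on dim genes. The replicate number was a block because both regions came from the same embryos. The labels do not say that equal numbers share an embryo, and the deviations of equal-numbered arrays from their group means correlated at 0.04, -0.01 and 0.06 across genes. The number of arrays limits the precision, and p-values reflect only how far these samples spread.

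Members and lists were chosen with earlier results of these data known. Every array is given for 24 genes: those with a mean above 4, the 10 with the smallest p, the brightest and lowest-p ligand and receptor of each family, and 9 genes of textbook interest. Unc5a and Sema5a are also given in full, chosen after their values were seen. From each further list, the 4 with the smallest p and the 3 brightest were named. Ntn5, Ntng1, Ntng2 and Epha6 were named as well, chosen after their values were seen. Sequences came from RefSeq tables on GRCm38.p6. Alternatives left out the block, rescaled or reweighted the arrays, dropped dim genes, used a trended robust prior or left out arrays.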

Additional observations from a re-analysis of the deposited data

How the results depend on the processing

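No guidance gene was called under any of the alternatives run, and their lowest adjusted p in limma lay between 0.279 and 0.676 over those fits. Over all genes, 0 were called with the block and 1 without it, and fits leaving out arrays called 0 to 5. The replicate block changed no call among the guidance genes. Unblocked, the unadjusted limma p was 0.0140 for Ntn1, 0.0177 for Ntn3, 0.0209 for Plxnb2 and 0.0463 for Ephb4. Median centring kept Ntn3 and Plxnb2 under an unadjusted p of 0.05 and added Slit3, cyclic loess kept Ntn3 and Plxnb2, the filter on dim genes kept Ntn3, and without both arrays numbered 3 there were 0. That filter, set at the median gene, kept 30 of 52 guidance genes (57.7%). Centring moved the share of lower genes among those with an unadjusted p under 0.05 to 46.5% and cyclic loess to 47.6%, against 57.8% as deposited. Of the 52 signs, 4 turned after centring, for Sema3b (0.0060), Sema4c (0.023), Plxna4 (0.034) and Ephb1 (0.0054), and 5 after cyclic loess, for Ntn4 (0.056), Sema3b (0.025), Sema4c (0.0029), Efna3 (0.0016) and Epha3 (0.0087). Among 36 genes followed singly, leaving out arrays gave ranges that crossed 0 for Efnb2 (-0.29 to 0.23), Neo1 (-0.18 to 0.19), Plxna4 (-0.18 to 0.11), Plxnd1 (-0.31 to 0.13), Robo1 (-0.30 to 0.19), Robo2 (-0.35 to 0.020), Sema3a (-0.28 to 0.12), Sema3b (-0.18 to 0.086), Sema3c (-0.56 to 0.012), Slit1 (-0.069 to 0.22) and Unc5a (-0.38 to 0.24). The sign held in those fits for Ntn1 (-0.60 to -0.42), Ntn3 (-0.70 to -0.41), Ephb4 (-0.59 to -0.31), Plxnb2 (0.42 to 0.84), Slit3 (0.28 to 0.52), Slit2 (0.17 to 0.46), Sema5b (0.25 to 0.41) and Sema3g (0.17 to 0.29). They gave family medians of -0.084 to 0.010 for the netrin group, -0.10 to 0.17 for Slits and Robos, -0.11 to 0.041 for semaphorins and plexins and -0.075 to 0.088 for ephrins and Eph receptors. Causes were not tested.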
